A study of Mus musculus with 4 samples.

Results

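Primordial germ cells were looked for among single cells from the caudal region of E8.5 mouse embryos by their own transcripts. A cell was selected when at least 2 of *Dppa3*, *Dnd1* and *Nanos3* were detected in it, each by at least 1 UMI (a unique molecular identifier, which marks 1 captured mRNA molecule). This rule selected 127 of 20198 cells that passed the filters, a minimum of 3000 genes and 7500 UMIs per cell and no more than 7% of UMIs from mitochondrial genes. Of these, 35 and 23 came from the WT libraries and 30 and 39 from the *Grhl3*-null libraries. The UMIs of these 3 genes chose the cells, so their levels are given below as a description with no test.

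The study compared WT embryos with embryos lacking *Grhl3*, a transcription factor needed for neural tube closure, to describe the cell populations of the closing caudal region. The WT group held cells of 5 embryos and the *Grhl3*-null group cells of 3 embryos, from crosses between *Grhl3*+/- mice on a C57BL/6 background. Both groups were untreated, shared the E8.5 stage, the dissection and the trypsin dissociation, and carried no other allele. *Grhl3* was lost in every cell type of the null embryos, not in germ cells alone. Each group was pooled into a single suspension that was run in 2 droplet reactions. The 2 libraries of a genotype are therefore reactions of 1 pool, and the p-values below measure the spread between reactions, which may be technical, and hold no spread between embryos. The barcodes called as cells numbered 6186 and 5698 in the WT libraries and 6177 and 6178 in the *Grhl3*-null libraries. After the filters the WT libraries held 226723903 and 220747840 UMIs and the *Grhl3*-null libraries held 226059247 and 209833527. The selected cells themselves held 2230004, 1756301, 1827315 and 1865209 UMIs in WT libraries 1 and 2 and *Grhl3*-null libraries 1 and 2, and libraries are listed in this order throughout. Pairs of libraries shared at most 7 barcodes among filtered cells, and shared 0 barcodes among the selected cells.

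Primordial germ cells are the embryonic precursors of eggs and sperm. In the mouse they are set aside from the proximal epiblast by BMP signals at gastrulation, gather at the base of the allantois, and then move through the hindgut towards the gonads, so that they lie in the caudal part of the embryo at this stage. A set of transcription factors (PRDM1, PRDM14 and TFAP2C) is known to hold back the somatic mesoderm programme in them, while genes of the pluripotency network, among them *Pou5f1*, *Sox2* and *Nanog*, are kept or switched on again. DPPA3 (also called Stella) protects DNA methylation in the fertilised egg and marks early germ cells, NANOS3 is an RNA-binding protein required for germ cell survival, and DND1 is its RNA-binding partner.

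The selected cells were of more than one kind. All 3 genes were detected in 41 cells (9, 3, 12 and 17 in the 4 libraries) and exactly 2 in 86 cells (26, 20, 18 and 22). UMIs of *Pou5f1*, which encodes the pluripotency factor OCT4 and was not part of the rule, fell into separate ranges: 62 cells held at least 8 UMIs, 65 cells held 0 to 6 and none held 7. This division was chosen after the values were seen and is used as a description only. All 41 triple-positive cells were *Pou5f1*-rich, and so were 21 of the 86 double-positive cells. Among the double-positive cells, the pair *Dppa3* and *Dnd1* was found in 62, of which 20 were *Pou5f1*-rich, the pair *Dnd1* and *Nanos3* in 14, of which 1 was rich, and the pair *Dppa3* and *Nanos3* in 10, of which 0 were rich.

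*Pou5f1*-rich cells were also rich in *Dppa3*. At least 8 *Dppa3* UMIs were held by 61 of the 62 *Pou5f1*-rich cells and by 2 of the 65 *Pou5f1*-poor cells, of which 56 held at most 3. In triple-positive cells *Dppa3* had a median of 33 UMIs per cell (8 to 73), *Dnd1* 6 (1 to 18), *Nanos3* 2 (1 to 5), *Pou5f1* 24 (8 to 49) and *Tfap2c* 7 (1 to 19). In *Pou5f1*-poor cells the medians were 1 UMI of *Dppa3* (0 to 12) and 0 of *Pou5f1* (0 to 6). Just outside the rule lay 1383 cells with 1 of the 3 genes, in which *Dppa3* reached at most 5 UMIs and 9 cells held at least 8 UMIs of *Pou5f1*. Just inside it, the 86 double-positive cells had a median of 2 *Dppa3* UMIs, and 22 of them held at least 8.

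**Figure D1:**
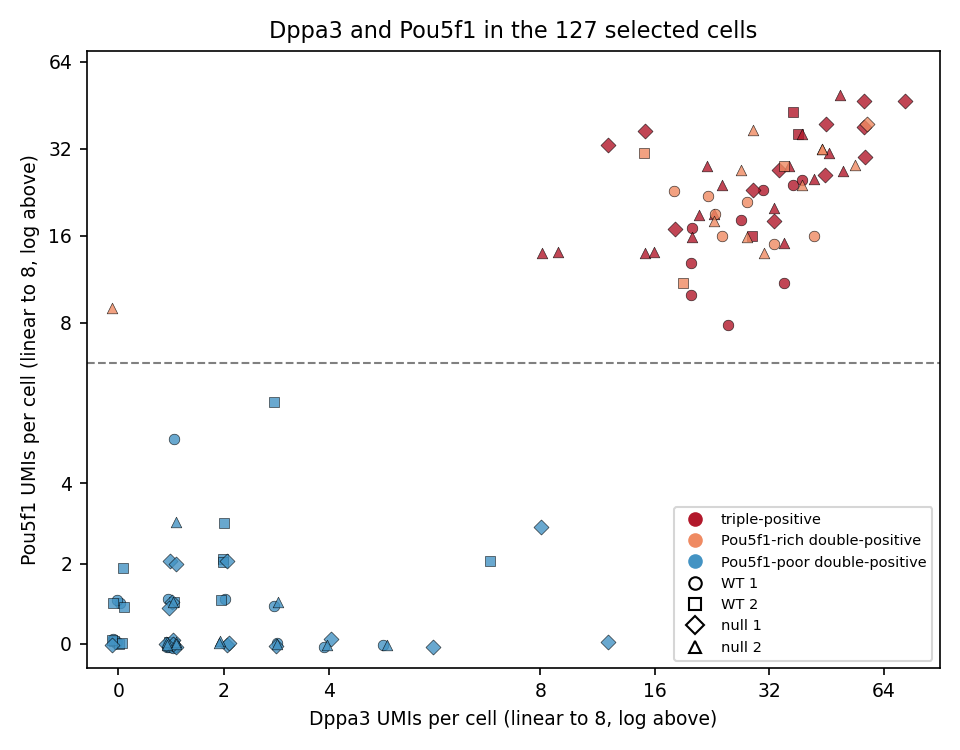
Each point is 1 of the 127 selected cells, with its *Dppa3* UMIs on the x axis and its *Pou5f1* UMIs on the y axis (both linear to 8 and logarithmic above). Colour gives the kind of cell and shape the library, and points are shifted slightly at random. The dashed line parts cells with 8 or more *Pou5f1* UMIs from the rest. The 41 triple-positive cells lie in the upper right, and the 65 *Pou5f1*-poor cells lie below the line with at most 6 *Pou5f1* UMIs.

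The *Pou5f1* levels went with the label of primordial germ cell in 62 of the cells and against it in the other 65. *Tfap2c* was detected in 41 of 41 triple-positive cells. *Prdm1* was detected in 36 of them, *Utf1* in 38 and *Nanog* in 32. *Nanog* was detected in 0 of the 65 *Pou5f1*-poor cells, which allows a share of up to 4.62% with a UMI and limits no expression below detection. The *Pou5f1*-poor cells were deeper, with a median of 72669 UMIs and 7913 genes per cell against 40631 UMIs and 6061 genes in triple-positive cells and 35345 UMIs and 5874 genes in all other filtered cells. Many met the marker rule of another cell class. The surface ectoderm rule, at least 3 of 5 markers among which are *Wnt6*, *Tfap2a*, *Bhlha9* and *Npnt*, was met by 45 of 65 (69.2%), the neuromesodermal progenitor rule (*T*, *Sox2* and *Nkx1-2*) was met by 17 and any other class rule by 58 (89.2%). Of the triple-positive cells 11 of 41 (26.8%) met another class rule, 9 of them that of neuromesodermal progenitors, 2 that of surface ectoderm and 0 that of gut, while 48.7% of all other filtered cells met a class rule. Cells that met another class rule were counted and not removed here, no doublet caller was run, and the part of depth or of droplets holding more than 1 cell in these figures was not tested. The 127 cells are called the selected cells below, and the 41 triple-positive cells germ cell-like. Results are given for both.

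The makeup of the selection differed between libraries. *Pou5f1*-rich cells made up 45.7%, 26.1%, 43.3% and 69.2% of the selected cells, and 33.4%, 18%, 33.2% and 57.0% of their UMIs. *Grhl3*-null library 2 thus held the highest and WT library 2 the lowest share, and values summed over all selected cells carry this difference. The levels below are in CPM, the UMIs of a gene as a share of all UMIs of a class of cells in 1 library, scaled to counts per 1e+06. Since only the 3′ ends of transcripts were counted, levels are compared between cells and not between genes.

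Promoters of 3 genes are shown, a gene of the rule, *Pou5f1* and *Utf1*, since the germ cell factors TFAP2C and OCT4 act at promoters and enhancers. The windows run from 250 bases before to 50 after the annotated start, on the strand of the gene (RefSeq, GRCm38.p6), and capitals mark matches to the TFAP2 consensus GCCNNNGGC. They are *Nanos3* at chr8:84176503-84176802 (minus strand), *Pou5f1* at chr17:35505782-35506081 (plus strand) and *Utf1*, an embryonic chromatin-associated factor with the largest fold in the selected cells among called genes at 30 CPM or more there, at chr7:139943606-139943905 (plus strand):
Nanos3: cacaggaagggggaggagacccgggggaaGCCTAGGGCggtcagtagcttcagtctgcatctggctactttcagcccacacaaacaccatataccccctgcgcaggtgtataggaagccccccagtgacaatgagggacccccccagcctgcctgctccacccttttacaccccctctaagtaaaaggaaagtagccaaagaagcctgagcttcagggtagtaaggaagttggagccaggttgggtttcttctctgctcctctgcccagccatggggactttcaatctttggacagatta
Pou5f1: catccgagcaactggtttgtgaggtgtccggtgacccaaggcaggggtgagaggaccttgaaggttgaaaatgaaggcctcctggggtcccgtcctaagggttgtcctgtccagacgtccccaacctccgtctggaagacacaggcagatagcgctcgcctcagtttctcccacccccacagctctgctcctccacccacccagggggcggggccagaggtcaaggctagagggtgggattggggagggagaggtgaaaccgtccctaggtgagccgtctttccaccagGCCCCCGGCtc
Utf1: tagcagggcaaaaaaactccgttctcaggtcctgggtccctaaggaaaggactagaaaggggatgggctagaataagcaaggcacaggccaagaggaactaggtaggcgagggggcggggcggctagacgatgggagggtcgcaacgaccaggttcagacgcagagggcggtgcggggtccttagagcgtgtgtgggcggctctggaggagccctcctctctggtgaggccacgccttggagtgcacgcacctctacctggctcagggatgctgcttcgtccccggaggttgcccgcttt
*Nanos3* and *Pou5f1* held 1 match each and *Utf1* none, and the octamer ATGCAAAT, searched on both strands like the TFAP2 motif, was in none of these 3 windows. Over 27025 mouse promoters of this length, 16.5% held GCCNNNGGC and 1.75% held the octamer. Of the genes tested in germ cell-like cells with a promoter in the table, 26.1% held the TFAP2 motif, against 22.7% of those higher (150 of 662) and 29.6% of those lower (284 of 960) in these cells. The octamer was in 1.28% of those tested, 2.57% of those higher (17 of 662) and 1.77% of those lower. These shares describe letters in a short window and were not tested. A second *Pou5f1* window held no TFAP2 match, *Nanog* held 1 in 1 of its 2 windows, and *Klf2* and *L1td1* held none, and these windows are not printed. The *Dnd1* promoter was not looked at here, and *Dppa3*, *Tfap2c*, *Gdf3* and *Dppa5a* had no entry.

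Selected cells were 0.641% (95% Clopper-Pearson interval 0.447 to 0.891), 0.450% (0.285 to 0.674), 0.620% (0.418 to 0.883) and 0.816% (0.581 to 1.11) of the filtered cells. The intervals cover counting error only, and those of all 4 libraries overlapped. The mean was 0.545% ± 0.135 (SD, n = 2) in WT and 0.718% ± 0.139 (n = 2) in *Grhl3*-null, a log2 ratio of 0.40 (exact permutation test over libraries, two-sided, p = 0.667). Germ cell-like cells were 0.165% (0.0754 to 0.313), 0.0586% (0.0121 to 0.171), 0.248% (0.128 to 0.433) and 0.356% (0.207 to 0.569). Both *Grhl3*-null libraries lay above both WT libraries, with means of 0.302% ± 0.0762 and 0.112% ± 0.0751 (n = 2 each), a log2 ratio of 1.43 (exact permutation test, two-sided, p = 0.333, the smallest that 2 against 2 libraries allow). *Pou5f1*-rich cells, at 0.293%, 0.117%, 0.268% and 0.565%, overlapped between the genotypes (log2 ratio 1.02, exact permutation test p = 0.667). The direction of the share of selected cells turned with a stricter limit of 5% mitochondrial UMIs (log2 ratio −0.021). It also turned when 1 of the 3 genes together with *Pou5f1* and *Tfap2c* was required (−0.11). Triple-positive cells had a median of 5.56% mitochondrial UMIs against 3.57% in all other cells, and the former lies above the stricter limit.

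**Figure D2:**
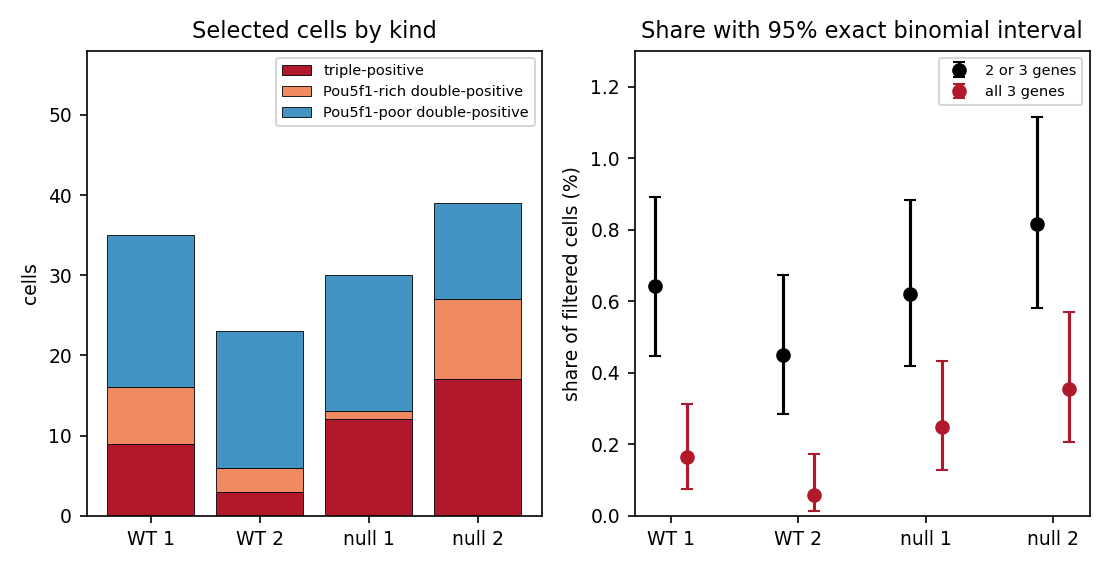
Left, selected cells in each of the 4 libraries (number of cells, stacked by kind: triple-positive, *Pou5f1*-rich double-positive and *Pou5f1*-poor double-positive). Right, the share of filtered cells in percent with 95% exact intervals, for cells with 2 or 3 of the genes and for cells with all 3; the intervals of the 4 libraries overlap for the former, and the triple-positive share ranges from 0.0586% to 0.356%.

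The largest rises of the selected cells against all other filtered cells were in pluripotency and germ cell genes. Of 9526 genes tested, 427 (4.48%) were higher and 221 (2.32%) lower in the 127 selected cells, by the edgeR quasi-likelihood test on UMIs summed per library, with library as a block. The balance turned to more lower than higher genes when each cell was thinned to 7500 UMIs and the rule applied to the thinned cells (522 higher and 1055 lower) and with cells that met another class rule left out (839 and 1047). A gene was called when its adjusted p (Benjamini-Hochberg) was under 0.05 and its fold change was 2-fold or more, which is 1 on the log2 scale. In the 41 germ cell-like cells 837 (8.95%) of 9356 were higher and 1281 (13.7%) lower, and 292 genes were higher in both, 68.4% of those of the selected cells and 34.9% of those of the germ cell-like cells. The median over all genes tested was a log2 fold change of 0.01 for the selected and −0.05 for the germ cell-like cells. Genes under 5 CPM in all other cells passed the filter on low levels only through the germ cells and had to be higher, so their log2 fold changes are given as a description, with no p, and counts of higher genes that include them support nothing. Likewise, genes under 5 CPM in the germ cells passed it only through the other cells and had to be lower. Counts of lower genes that include them support nothing either, here and in the lists and class comparisons below. Among called genes at 30 CPM or more in the higher class, the largest rises in the selected cells included *Utf1* (7.18), *Dppa5a* (6.05), *L1td1* (5.11), *Tfap2c* (4.8), *Klf2* (4.52), *Pou5f1* (4.45), *Ifitm3* (4.12), *Hspb1* (3.88), *Tdh* (3.75), *Slc40a1* (3.55) and *Klf5* (3.07). The largest falls were in the globins *Hba-x* (−3.94), *Hbb-y* (−3.49), *Hbb-bh1* (−3.08) and *Hba-a1* (−2.61), in *Gm14226* (−2.91) and *Pcdh19* (−2.53), in mesoderm and somite genes (*Foxc2* −2.17, *Dll3* −2.16, *Prrx2* −2.03, *Foxf1* −2.01, *Dll1* −2.0) and in *Rbp4* (−2.02). WT library 1 went against the globin calls: 1 selected cell of WT library 1 met the erythroid rule, and *Hba-x* was at 1201 CPM there and at 8.54, 13.1 and 17.2 in the others. In germ cell-like cells *Hba-x* was at 18.8, 10.0, 20.1 and 17.1 CPM against a mean of 842 in all other cells, a log2 fold change of −5.56 ± 0.15 (SE; edgeR, adjusted p = 4.66e-12).

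The rule genes differed as they had to. *Dppa3* in germ cell-like cells was at 683, 521, 866 and 696 CPM, against a mean of 0.305 ± 0.0206 (SD, n = 4) in all other cells, and at a mean of 25.6 in *Pou5f1*-poor cells. A near-identical copy of *Dppa3* exists (98.2% over 451 bases), so its own level is uncertain. *Dnd1* was at 113, 175, 197 and 148 CPM against a mean of 1.24. *Nanos3* was at 43.0, 40.0, 47.4 and 44.2 CPM against a mean of 0.213.

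Of the factors that specify germ cells, *Tfap2c* and *Pou5f1* separated the classes in every library. *Tfap2c*, a transcription factor that acts beside PRDM1 in germ cell specification and is also known in surface ectoderm, was at 108, 130, 195 and 194 CPM in germ cell-like cells and at 2.72, 2.54, 2.47 and 2.42 in all other cells (log2 fold change 5.89). In *Pou5f1*-poor cells it was at 33.7, 19.4, 4.10 and 15.0 CPM, below germ cell-like cells in each library. *Pou5f1* was at 401, 476, 696 and 560 CPM in germ cell-like cells, at 6.73, 14.6, 9.02 and 6.24 in *Pou5f1*-poor cells and at 12.9, 13.4, 5.92 and 5.71 in all other cells. The classes did not overlap for germ cell-like against all other cells (log2 fold change 5.92 ± 0.29, edgeR adjusted p = 2.94e-09). The low level in *Pou5f1*-poor cells is set by how they were chosen. *Prdm1*, which encodes the repressor BLIMP1, was at 61.8, 55.1, 80.2 and 79.9 CPM against a mean of 3.76 ± 0.69 (4.23). *Prdm14*, a chromatin regulator of the same network, was at 13.4, 10.0, 18.2 and 24.2 CPM against a mean of 0.0743 (7.46). Every library was high for both.

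Of the 16 listed germ cell specification genes, these 4 included, 12 were tested in germ cell-like cells, and 9 were higher and 1 lower, beside 8.95% and 13.7% of all genes tested. At 5 CPM or more in all other cells were 8 of the 12, of which 5 were higher (*Kit*, *Alpl*, *Ifitm1*, *Ifitm3* and *Pou5f1*). In the selected cells 6 of 12 were higher and 0 lower (4.48% and 2.32% of all genes), and 4 of these 6 were at 5 CPM or more in all other cells. *Ifitm3* (Fragilis), an interferon-induced membrane protein long used as an early germ cell marker, was at 1462, 1522, 1694 and 1541 CPM against a mean of 32.5 ± 4.27 (log2 fold change 5.56 ± 0.09, edgeR adjusted p = 1.65e-14). *Kit*, the receptor through which *Kit* ligand guides and sustains germ cells, was at 118, 115, 190 and 133 CPM against 15.0 (3.25 ± 0.16, adjusted p = 4.02e-09). *Alpl*, the alkaline phosphatase of the classical germ cell stain, was at 202, 160, 208 and 240 CPM against 32.3 (2.76). *Ifitm1* rose less, to 1661, 991, 1991 and 1730 CPM against 728 (1.17), and *Pecam1* by 1.93. *Lin28b*, which blocks let-7 maturation, was lower, at 45.7, 10.0, 21.9 and 18.5 CPM against 80.6 (−1.70). Its relative *Lin28a*, at 124, 165, 91.2 and 81.3 CPM against 159, was not called (−0.52). *Sall4*, a zinc finger factor of germ and stem cells, was at 277, 320, 352 and 402 CPM against 204, above all other cells in every library but under the fold threshold (0.80).

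Of the 25 listed genes of the pluripotency network, 16 were tested in germ cell-like cells, and 14 were higher and 1 lower, beside 8.95% and 13.7% of all genes tested. Of the 14, 10 were under 5 CPM in all other cells and could pass the filter only by being higher, and 4 of the 6 tested at 5 CPM or more there were higher. In the selected cells 9 of 12 were higher and 0 lower (4.48% and 2.32% of all genes), 3 of them at 5 CPM or more in all other cells. *Nanog* was at 26.9, 25, 54.7 and 48.5 CPM against a mean of 0.107, and *Gdf3*, a TGF-beta family ligand, at 45.7, 70.1, 43.8 and 45.6 against 0.0194. *Utf1* was at 207, 180, 166 and 170 CPM against 0.411 (log2 fold change 8.31). All other cells lay far below germ cell-like cells in each library for these genes. *L1td1*, an RNA-binding protein of stem cells, was at 161, 215, 390 and 264 CPM against 2.53 (6.57). *Dppa5a*, also an RNA-binding protein, was at 91.4, 200.2, 120.3 and 155.4 CPM against 0.598 (7.71), with near-identical gene copies that make its own level uncertain. The same limit holds for *Nanog* and *Ifitm1*, which have near-identical copies as well. The Krüppel-like factors *Klf2* (113, 115, 215 and 281 CPM against 3.01) and *Klf5* (53.8, 40.0, 131 and 130 against 6.99) were higher by 5.93 and 3.76. *Sox2*, which is also a neural and neuromesodermal gene, was at 194, 210, 314 and 254 CPM against a mean of 58.7, a smaller rise (2.10 ± 0.12, edgeR adjusted p = 1.39e-08). *Zfp42* (7.02) and *Esrrb* (7.28) were higher too, and *Tbx3* lower (−1.78), a call that was lost without either *Grhl3*-null library. Summed over the list, the network reached 1672, 2052, 2638 and 2463 CPM in germ cell-like cells. In *Pou5f1*-poor cells the sums were 364, 385, 454 and 377 CPM, with *Nanog*, *Gdf3*, Tdgf1, *Dppa2* and *Dppa4* at 0, beside 333, 346, 316 and 317 CPM in all other cells.

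**Figure D3:**
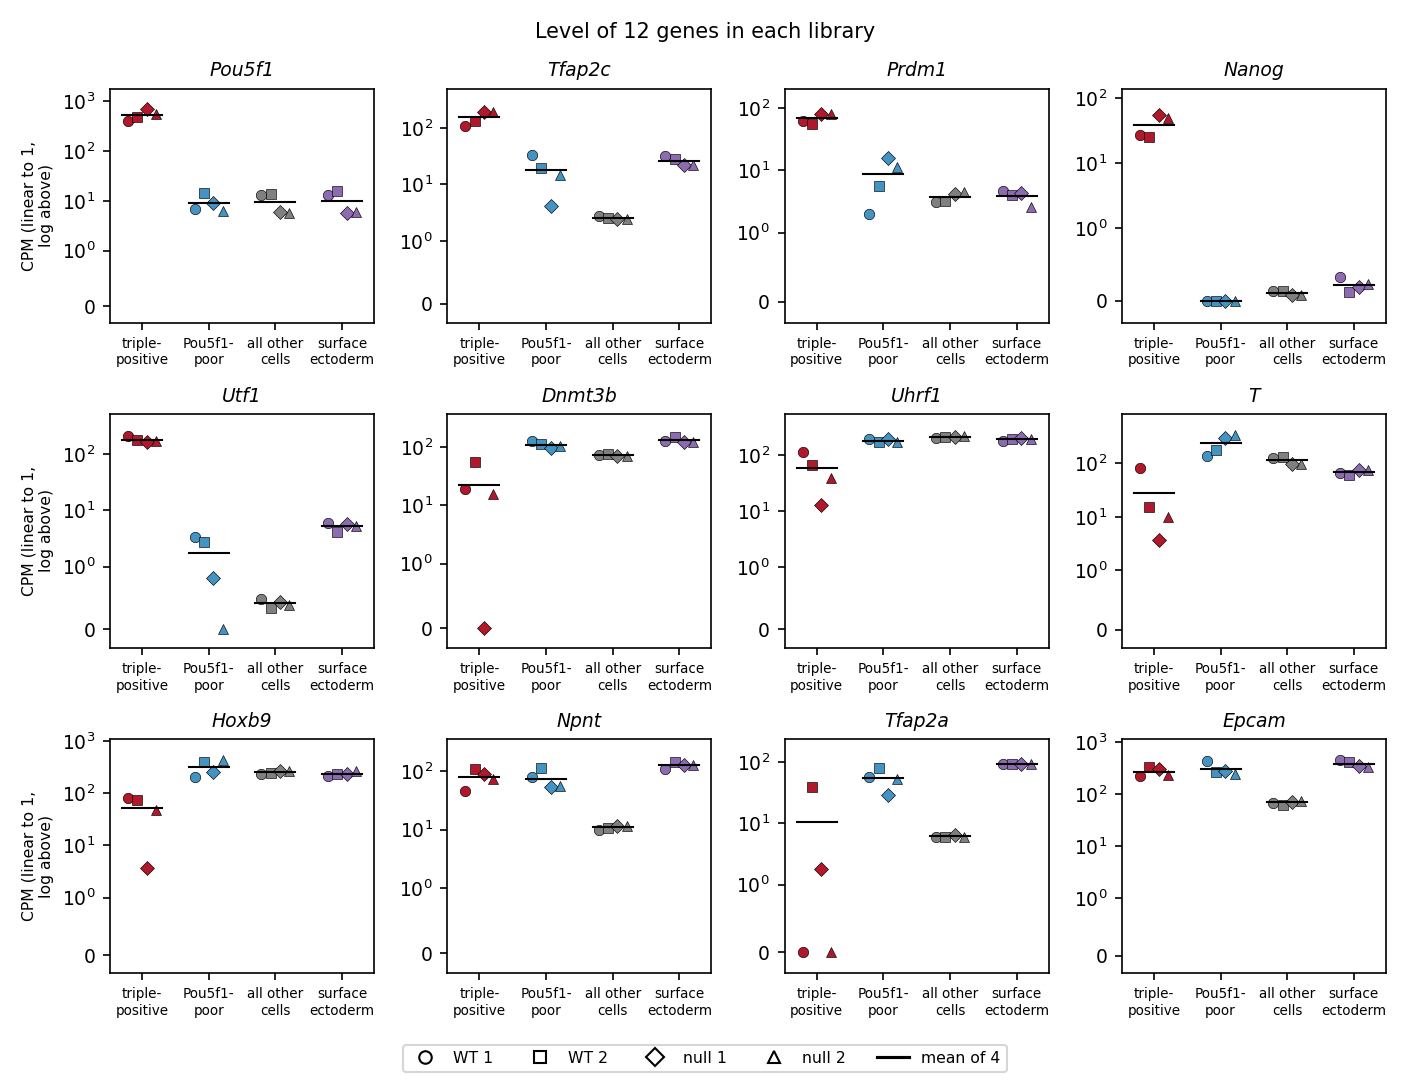
Levels of 12 genes (CPM, linear to 1 and logarithmic above) in germ cell-like cells, *Pou5f1*-poor selected cells, all other cells and surface ectoderm cells. Each point is 1 of 4 libraries and the line is their mean. *Pou5f1*, *Tfap2c*, *Prdm1*, *Nanog* and *Utf1* are highest in germ cell-like cells in every library, while *T*, *Hoxb9* and *Uhrf1* are lower there than in all other cells, with the WT libraries above the *Grhl3*-null ones for *Uhrf1*.

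Other genes with a large rise have roles outside the network. *Tdh*, the threonine dehydrogenase of mouse stem cell metabolism, was at 142, 160, 252 and 192 CPM in germ cell-like cells against a mean of 4.73 (5.31). *Hspb1*, a small heat shock protein, was at 78.0, 60.1, 87.5 and 108 CPM against 2.27 (5.33), and *Slc40a1*, the iron exporter ferroportin, at 48.4, 45.1, 69.3 and 64.2 against 2.94 (4.28). Of 15 germ cell genes that the study listed for its own cluster, 13 were tested and 13 were higher, 0 of them at 5 CPM or more in all other cells, and that list was chosen on these samples and is not independent evidence of its direction. Of 22 genes of later germ cell stages only 3 passed the filter. *Rhox6* (16.1, 75.1, 58.3 and 64.2 CPM against 0.657) and *Rhox9* (26.9, 0, 56.5 and 127 against 0.0569), both X-linked homeobox genes, were higher and *Rhox5* was not called. Among called genes at 30 CPM or more, the largest folds in germ cell-like cells were in *Gdf3* (9.59), *Pla2g10* (8.86), *Rhox9* (8.48), *Utf1* and *Nanog* (8.28).

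DNA methylation genes were called in both directions. Of 10 tested, 2 were higher and 4 lower in germ cell-like cells (median −0.36), beside 8.95% higher and 13.7% lower of all genes tested. Over the selected cells 2 were higher and 0 lower. *Uhrf1*, which brings the maintenance enzyme DNMT1 to replicating DNA, was at 113, 65.1, 12.8 and 38.5 CPM against a mean of 209 ± 4.76 (−2.01 ± 0.29, edgeR adjusted p = 8.29e-05), below all other cells in each library but spread widely. *Dnmt1* itself, at 124, 135, 111 and 127 CPM against 122, was not called (0.05). *Dnmt3b*, a de novo methyltransferase, was at 18.8, 55.1, 0 and 15.7 CPM against 71.9 (−2.08), a call lost with DESeq2 (adjusted p = 0.0588). *Dnmt3a*, at 59.1, 20.0, 14.6 and 24.2 CPM against 60.3 (−1.02), lost its call without any of 3 of the libraries (all but WT library 1). *Tet3* was lower too (−1.87). Higher were *Tet1*, which oxidises methylcytosine, at 53.8, 45.1, 102 and 81.3 CPM against 32.2 (1.24), and *Gadd45a*, at 67.2, 20.0, 54.7 and 67.0 against 20.7 (1.44). Of 22 histone modifier genes, 0 were higher and 2 were lower (median 0.01), both under the shares over all genes. These were *Ehmt1*, the H3K9 methyltransferase GLP, at 45.7, 80.1, 23.7 and 34.2 CPM against 127 (−1.63), and *Kdm6b*, an H3K27 demethylase (−1.41). *Ezh2* was not called (−0.28).

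Of 17 genes of gastrulation and mesoderm tested in germ cell-like cells 11 were lower and 1 higher (median −2.14), beside 13.7% lower and 8.95% higher of all genes tested. Any of them under 5 CPM in germ cell-like cells could only be called lower, which raises the lower count. In the selected cells, with the *Pou5f1*-poor cells included, 5 of 20 were lower and 3 higher (median 0.02). *T* (Brachyury), the mesoderm and notochord factor, was at 83.3, 15.0, 3.65 and 9.98 CPM in germ cell-like cells, against a mean of 113 ± 18.4 in all other cells and 135, 181, 297 and 333 in *Pou5f1*-poor cells (−2.15 ± 0.38 against all others, edgeR adjusted p = 0.000428). Of these 3 kinds of cell, *T* was thus lowest in germ cell-like cells in every library, with WT library 1 nearest to all other cells. *Snai1*, the repressor of E-cadherin at gastrulation, was at 5.38, 5.01, 0 and 2.85 CPM against 28.7 (−3.25). *Fgf8* was at 72.6, 0, 29.2 and 15.7 CPM against 140 (−2.14), and *Twist1* at 0, 0, 0 and 22.8 against 56.2 (−2.79). *Cdx1* was lower (−2.45), whereas the caudal factor *Cdx2*, at 239, 160, 124 and 141 CPM against 192, was not called (−0.18). The exception that rose was *Msx2*, a homeobox target of BMP signals, at 94.1, 145, 109 and 88.4 CPM against 26.7 (1.99).

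Hox genes, which set axial position in somatic tissue, were lower nearly throughout. Of 26 tested in germ cell-like cells 24 were lower and 0 higher (median −2.32), beside 13.7% and 8.95% of all genes tested. Any Hox gene under 5 CPM in germ cell-like cells could only be called lower, and the lower count includes any such gene. *Hoxc5* and *Hoxc10* were the 2 not called. The calls of *Hoxb7*, *Hoxd8*, *Hoxd9* and *Hoxa10* were lost in 1 to 4 of the alternatives tried. In the selected cells 2 of 27 were lower, *Hoxa2* and *Hoxb1* (median −0.15). *Hoxb9* was at 80.7, 75.1, 3.65 and 48.5 CPM in germ cell-like cells, 209, 388, 253 and 434 in *Pou5f1*-poor cells and a mean of 255 ± 19.5 in all other cells (−2.45 ± 0.32, edgeR adjusted p = 3.7e-05). The summed level of the list was 726, 766, 47.4 and 249.5 CPM in germ cell-like cells and 1852, 1924, 1723 and 1717 in all other cells. The WT libraries were thus nearer to all other cells than the *Grhl3*-null ones. The shares of germ cell-like cells that met another class rule were 4 of 9, 2 of 3, 1 of 12 and 4 of 17, and their part in this difference was not tested.

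Adhesion genes were called in both directions. Of 20 tested 7 were higher and 8 lower in germ cell-like cells (median −0.67), beside 8.95% and 13.7% of all genes tested. *Epcam*, the epithelial cell adhesion molecule, was at 223, 330, 308 and 237 CPM against a mean of 69.7 (1.96 ± 0.13, edgeR adjusted p = 6.38e-08). *Cdh1* (E-cadherin) was at 37.6, 60.1, 52.9 and 28.5 CPM against 12 (1.81) and *Cldn7*, a tight junction claudin, at 118, 160, 128 and 131 against 28.3 (2.22). *Epcam*, *Cdh1* and *Cldn7* were higher in each library. *Itgb3* (5.06), an integrin subunit, and *Cd9* (1.23) rose as well, while *Cdh2* (N-cadherin) fell, at 56.5, 10.0, 10.9 and 15.7 CPM against 111 (−2.26). *Cdh11*, *Itga5*, *Gja1*, *Vim* and *Mmp14* were lower, as were *Itga6* and *Itgav*, whose calls were lost in 3 and 5 of the alternatives tried. *Cxcr4*, the receptor for the chemokine that attracts germ cells, was at 13.4, 0, 18.2 and 11.4 CPM against 10.7 and was not called (0.27). *Cldn6* was not called either, at 21.5, 120, 7.29 and 11.4 CPM against 45.5 (−0.82).

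The following lists are to be read beside the 8.95% higher and 13.7% lower of all genes tested in germ cell-like cells, and their counts single out no list. BMP and SMAD genes gave 2 higher and 1 lower of 16 tested (median −0.48). The inhibitory *Smad7* was at 69.9, 75.1, 117 and 77.0 CPM against 30.2 (1.55), and *Id4*, a target of BMP signals, at 8.07, 25, 21.9 and 21.4 against 3.54 (2.44). *Smad1*, which carries the BMP signal, was lower (−1.11), a call lost without *Grhl3*-null library 2. Of 20 G2 and M phase genes 3 were higher and 0 lower (median 0.50): *Nusap1* at 94.1, 115, 188 and 130 CPM against 56.9 (1.28), *Cenpf* (1.11) and *Top2a* (1.00), of which *Cenpf* and *Top2a* lost the call without *Grhl3*-null library 1. Of 20 S phase genes *Ung* was higher, at 175, 145, 266 and 220 CPM against 80.8 (1.42), and *Ccne2*, whose call was lost without *Grhl3*-null library 1, and *Gins2* were lower (median −0.16). *Gins2*, a subunit of the replicative helicase, was at 48.4, 15.0, 12.8 and 20.0 CPM against 105 (−2.12). Of 13 cell death regulators the pro-apoptotic *Bid* was higher, at 37.6, 20.0, 45.6 and 34.2 CPM against 13.3 (1.53), and 3 were lower (median −0.40). Among these were *Bcl2*, with 1 UMI in all 41 cells, and *Bbc3*, which lost its call in 3 alternatives. Of 19 glycolysis genes *Pfkp* was higher (1.57) and 3 were lower (median −0.59), led by the glucose transporter *Slc2a1* at 153, 85.1, 100.3 and 117 CPM against 372 (−1.66), while *Aldoc* and *Tpi1* lost their calls in 5 and 3 alternatives. Of 14 RNA-binding partners *Elavl2* was higher, at 51.1, 60.1, 113 and 71.3 CPM against 23.5 (1.72), and *Lin28b*, *Igf2bp1* (−1.14) and *Igf2bp3* (−1.11) were lower (median −0.52).

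**Figure D4:**
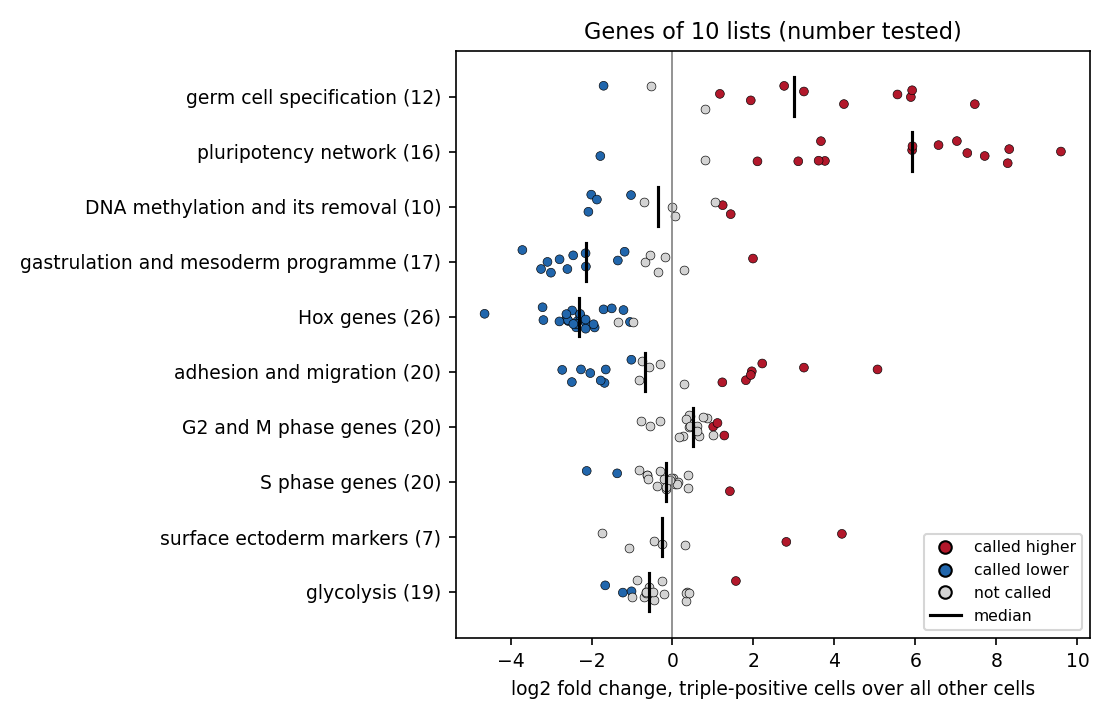
Log2 fold change of germ cell-like over all other cells for the tested genes of 10 lists. Each point is a gene (red higher, blue lower, grey not called) and the bar is the median of the list, which ranges from 5.92 for the pluripotency network to −2.32 for the Hox genes.

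Markers of the other cell types the suspension could hold were mostly lower, beside 13.7% of all genes tested. Markers under 5 CPM in germ cell-like cells entered the test only through the other cells and could only be called lower. The lower counts that include them are a description and support nothing. Among gut markers 0 of 8 were higher and 7 lower (median −3.79, or −3.29 with genes at 0 placed at their bound), with summed levels of 40.3, 45.1, 47.4 and 45.6 CPM in germ cell-like cells against 140, 142, 291 and 310 in all other cells, and with *Foxa2* and *Cpn1* at 0. *Sox17*, an endoderm factor that is also known in germ cells, gave the largest part of that sum, at 26.9, 15.0, 14.6 and 15.7 CPM against 11.2 and was not called (0.67). Erythroid markers were lower in 6 of 6 (median −5.46, or −5.22 at the bound), neural markers in 5 of 7 (median −3.45, or −2.63), endothelium markers in 7 of 9 (median −4.07, or −2.64), with *Cldn5* higher (1.72). Paraxial mesoderm markers were lower in 5 of 6 (median −3.15), lateral plate and allantois markers in 4 of 6 (median −2.18) and visceral endoderm markers in 1 of 2, *Apoa1* (median −1.58). Of 3 trophoblast markers *Ascl2*, an imprinted helix-loop-helix gene, was higher (3.32), and 0 of 7 early myeloid markers passed the filter. Of 4 genes induced by dissociation, *Ier3* was higher (1.98) and *Jun* lower (−1.65), with a median of −0.01.

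Surface ectoderm markers, like the trophoblast ones, had none called lower in germ cell-like cells. Of 7 tested, 2 were higher in germ cell-like cells (median −0.25), but 7 of 7 were higher in the selected cells (median 2.56), beside 8.95% and 4.48% of all genes tested. Of these 7, *Trp63* was under 5 CPM in all other cells and could only be called higher. *Npnt*, an extracellular matrix ligand, was at 45.7, 110, 91.2 and 72.7 CPM in germ cell-like cells and at a mean of 74.9 in *Pou5f1*-poor cells, against 10.9 in all other cells (2.81 ± 0.21 in germ cell-like cells, edgeR adjusted p = 2.24e-07). It was above all other cells in every library. *Tfap2a*, the relative of *Tfap2c* that marks surface ectoderm, was at 0, 40.0, 1.82 and 0 CPM in germ cell-like cells against 57.2, 82.0, 29.5 and 52.4 in *Pou5f1*-poor cells and a mean of 6.15 in all other cells. It was called higher in the selected cells (2.56), and its direction turned in germ cell-like cells (−0.25). The summed level of these markers was 156, 626, 211 and 214 CPM in germ cell-like cells, 708, 976, 540 and 484 in *Pou5f1*-poor cells and 95.7, 101, 114 and 113.5 in all other cells, with *Krt5* at 0 in germ cell-like cells. WT library 2, with 3 germ cell-like cells, was the highest of the germ cell-like sums.

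Against gut cells, beside which germ cells lie at this stage, the selected cells had 307 of 9727 genes higher (3.16%) and 556 lower (5.72%), and the germ cell-like cells 780 of 9556 higher (8.16%) and 1512 lower (15.8%). The 1099 gut cells were those with at least 3 of *Foxa2*, *Sox17*, *Spink1*, *Nepn* and *Cpn1*, which got no test here, as the rule genes of each class below. The largest rises in the selected cells were *Tfap2c* (7.68), *Bhlha9* (7.28), *Pou5f1* (6.70), *Klf2* (6.34) and *Utf1* (6.27), and the largest falls included *Ttr* (−6.64) and *Afp* (−5.98). *Tfap2c* in germ cell-like cells was higher by 8.88 (mean 0.381 CPM in gut) and *Pou5f1* by 8.18 (1.98 CPM in gut). *Prdm1*, which gut cells also express at a mean of 15.3 CPM, was higher by 2.31 ± 0.19 and *Kit* by 2.12. The epithelial genes went the other way, with *Epcam* at a mean of 606 CPM in gut (−1.07) and *Cdh1* at 94.1 (−1.08). *Ttr* (−6.98) and the signal *Shh* (−7.67) were lower, and of the Hox genes 17 of 27 were lower. Of the germ cell specification list 9 of 12 were higher, of the pluripotency network 12 of 17, counts that the filter on low levels raises here as above, and of the visceral endoderm markers 8 of 8 were lower. The filter raises the lower counts in the same way.

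Against surface ectoderm cells, in which *Tfap2c* was also detected, the selected cells had 221 of 9565 genes higher (2.31%) and 145 lower (1.52%). The germ cell-like cells had 777 of 9418 higher (8.25%) and 1181 lower (12.5%). The shares of the selected cells were their lowest among the 3 classes, and 45 of the *Pou5f1*-poor cells met the surface ectoderm rule themselves. The lower count was 221 without WT library 2, 94 without *Grhl3*-null library 1 and 95 without *Grhl3*-null library 2. *Pou5f1* was higher in germ cell-like cells by 5.96 ± 0.30 (edgeR adjusted p = 1.8e-08; mean 9.99 CPM in surface ectoderm). *Tfap2c*, at 31.5, 28.4, 21.7 and 22.3 CPM in surface ectoderm, was higher in each germ cell-like library by 2.80 ± 0.22 (edgeR adjusted p = 1.4e-06). The paper placed *Tfap2c* at the neural plate border, found none in surface ectoderm, and held both tissues in a single cluster. Whether border cells met the surface ectoderm rule used here was not tested. *Utf1* (5.20), *Nanog* (7.45), *Prdm1* (4.34), *Kit* (3.08), *Klf5* (1.69) and *Sox17* (4.16) were higher, while *Trp63*, the master factor of stratified epithelium (−3.74), *Hapln1* (−4.65), *Batf3* (−3.74), *Pmp22* (−3.47) and *Dnmt3b* (−2.82; mean 130 CPM in surface ectoderm) were lower. *Epcam* (−0.37), *Cdh1* (−0.43) and *Cldn7* (0.15) were not called. The largest rises of the selected cells were *Tdh* (6.02), *Klf2*, *Dppa5a* (5.81), *Tcf15* (4.37) and *Pou5f1* (4.34). Of the pluripotency network 15 of 16 were higher in germ cell-like cells, and of the germ cell specification genes 10 of 13 were higher and 2 lower. Genes under 5 CPM in surface ectoderm cells passed the filter only through the germ cells, so these higher counts support nothing. Lower were 20 of 25 Hox genes and 9 of 17 gastrulation genes, counts that the filter raises in the same way.

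Against neuromesodermal progenitors, which share *Sox2* and lie in the tail bud, the selected cells had 580 of 9429 genes higher (6.15%) and 225 lower (2.39%), and the germ cell-like cells 940 of 9264 higher (10.1%) and 1122 lower (12.1%). *Pou5f1* was at a mean of 18.4 CPM in these 3045 cells, the highest of the 3 classes, and was higher in germ cell-like cells by 5.05 ± 0.26 (edgeR adjusted p = 1.5e-09). *Tfap2c* (6.53; mean 1.78 CPM in progenitors), *Utf1* (9.61), *Nanog* (7.99), *Prdm1* (6.64), *Epcam* (4.94) and *Cdh1* (3.97) were higher. *Foxb1* (−4.45), *Fgfbp3* (−6.32) and *Lix1* (−4.10) were lower, with 7 of 8 neural markers, 21 of 25 Hox genes and 10 of 16 gastrulation genes. Of the pluripotency network 13 of 15 were higher and of the germ cell specification genes 9 of 13. Here too, genes under 5 CPM in the progenitors entered the test only through the germ cells, so these counts support nothing. The filter raises the lower counts above in the same way. In the selected cells the largest rises included *Bhlha9* (8.25), *Utf1* (7.85), *Cldn7* (6.75) and *Klf2* (6.37).

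The share of cells with a UMI depended on depth, so each cell was also thinned to 7500 UMIs. *Pou5f1* was detected in 68.5% of selected cells and in 48.0% after thinning, in 38.5% and 7.69% of *Pou5f1*-poor cells, and in 23.3% and 6.22% of all other cells. *Pou5f1*-poor cells were chosen by their *Pou5f1* UMIs, so their share is a description. Gut cells, which should lack the gene, gave 8.10% and 1.73%. *Tfap2c* was detected in 71.7% of selected cells and in 43.3% after thinning, against 5.20% and 1.51% of all other cells and 1.00% and 0.273% of gut cells. In surface ectoderm cells *Tfap2c* was detected in 48.6% and, after thinning, 17.1%. Thinned shares in germ cell-like cells were 90.2% for *Pou5f1*, 80.5% for *Tfap2c*, 51.2% for *Prdm1* and 26.8% for *Nanog*, against 0.105% for *Nanog* in all other cells. *T* went the other way, with 34.1% of germ cell-like and 54.8% of all other cells, and 4.88% and 32.2% after thinning. The number of genes per cell at 7500 UMIs had a median of 2563 in germ cell-like cells, 2775 in *Pou5f1*-poor cells and 2703 in all other cells.

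*Xist*, the RNA that coats the inactive X chromosome, was lower in germ cell-like cells, at 212, 325, 67.5 and 84.1 CPM against a mean of 413 (−1.46), the only 1 of 5 sex-linked genes tested that was called. Every library held cells with and without UMIs of Y-linked genes, so cells without a Y-linked UMI were taken apart. Among germ cell-like cells these were 18 of 41 (5 of 9, 3 of 3, 3 of 12 and 7 of 17), and among all other cells 66.2% and 66.1% in WT and 37.9% and 36.0% in *Grhl3*-null. In such cells *Xist* summed to 248 CPM in germ cell-like and 698 CPM in all other cells, with medians of 5 and 23 UMIs per cell. The median depths were 40399.5 and 33933.5 UMIs, and by library 36251 to 53004 over 3 to 7 germ cell-like cells and 31766 to 37467.5 in all other cells. After thinning *Xist* was detected in 66.7% of these germ cell-like cells (95% Clopper-Pearson interval 41.0 to 86.7) and in 90.8% of the other ones. Absence of a Y-linked UMI does not show that a cell is female.

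For the loss of *Grhl3*, the targeted gene was looked at first. *Grhl3* (chr4:135541888-135573630 in mm10, minus strand) had 43, 28, 0 and 0 UMIs in the selected cells, which is 19.3, 15.9, 0 and 0 CPM, and 3.72, 3.54, 0.0535 and 0.0673 CPM in all other cells. *Grhl3* was thus at or near 0 in both libraries labelled *Grhl3*-null and in neither WT library. Germ cell-like cells held 2, 1, 0 and 0 UMIs of it, and in WT *Pou5f1*-poor cells 26.3 and 17.4 CPM, so nearly all *Grhl3* of the selected cells came from the *Pou5f1*-poor ones.

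Between genotypes, 41 of 9555 genes were higher (0.429%) and 71 lower (0.743%) in the *Grhl3*-null selected cells. In germ cell-like cells alone 6 of 5539 were higher (0.108%) and 20 lower (0.361%), and 3 and 2 of these were shared with the selected cells. The share of UMIs from *Pou5f1*-rich cells, 33.4% and 18% in WT and 33.2% and 57.0% in *Grhl3*-null, overlapped between the genotypes, and its part in the first comparison was not tested. *Pou5f1* was at 130, 106, 236 and 340 CPM over the selected cells (1.28, edgeR adjusted p = 0.00757) and at 401, 476, 696 and 560 over germ cell-like cells (0.56, adjusted p = 0.149), where it was not called. Other germ cell genes higher over the selected cells were *Klf2* (1.64), *Prdm1* (1.36), *Alpl* (1.03), *Nanog* (1.85) and *L1td1* (1.55). In germ cell-like cells *Prdm1* was at 0.46 and *Nanog* at 0.99, and neither was called, nor were *Tfap2c* (0.76, adjusted p = 0.158), *Kit* (0.47), *L1td1* (0.85), *Utf1* (−0.20) or *Ifitm3* (0.14). The counts of the selected cells changed with a library left out, a fit in which the lone library of a genotype is assumed to vary like those of the other: without WT library 1 there were 0 higher and 0 lower (1310 of 9931 genes at an unadjusted p under 0.05), without WT library 2 1 and 4, without *Grhl3*-null library 1 81 and 133, and without *Grhl3*-null library 2 16 and 22. DESeq2 gave 14 higher and 24 lower with all libraries. Those of germ cell-like cells, 6 and 20, were 1 and 4 with DESeq2, 11 and 48 with the replicate number as a block, and 17 and 75, 23 and 50, 9 and 24, and 14 and 82 without WT library 1, WT library 2, *Grhl3*-null library 1 and *Grhl3*-null library 2.

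By list, 3 of 12 germ cell specification genes and 5 of 15 pluripotency genes were higher in *Grhl3*-null selected cells, beside 0.429% of all genes tested higher and 0.743% lower. Of the surface ectoderm markers 4 of 7 were lower (*Tfap2a*, *Bhlha9*, *Hapln1* and *Trp63*), of the gut markers 4 of 8 were lower (*Foxa2*, *Nepn*, *Cpn1* and *Foxa1*), of the paraxial mesoderm markers 4 of 6 were higher (*Tcf15*, *Meox1*, *Foxc2* and *Aldh1a2*) and of the Hox genes 2 of 27 were lower (*Hoxc10* and *Hoxd11*). *Apela*, which encodes a peptide ligand of the apelin receptor, was at 139, 146, 4.38 and 12.9 CPM (−4.03). Its levels came from the *Pou5f1*-poor cells, at 207, 176, 4.92 and 7.48 CPM, and germ cell-like cells held 11 UMIs of it in all.

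Some of the genes called between genotypes in germ cell-like cells also differed in all other cells. *Stmn1*, which encodes the microtubule regulator stathmin and lies on chromosome 4 like *Grhl3*, was at 809, 831, 244 and 305 CPM (−1.54 ± 0.15, edgeR adjusted p = 7.99e-05), and at 1026, 1066, 326.5 and 388 CPM in all other cells (−1.58). *Hdac1*, a histone deacetylase 6.03 Mb from *Grhl3*, was at 215, 235, 119 and 97.0 CPM (−1.04), against 156, 153, 67.7 and 66.9 in all other cells (−1.23). *Gm10036* (6.05) and *Gm10093* (3.13) were higher, as in all other cells (6.09 and 5.59). They match *Rpl11* at 99.3% over 534 bases and *Hdac1* at 99.4% over 1444 bases, so their counts, like those of *Hdac1* and of *Stmn1*, which has copies as well, are uncertain. *Hdac1* lost its call without WT library 2, without *Grhl3*-null library 2 and with DESeq2.

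Other calls in germ cell-like cells included *Klf5*, *Klf2* and Hox genes. Of the lists, 2 of 11 pluripotency genes (*Klf2* and *Klf5*) and 0 of 10 germ cell specification genes were higher, beside 0.108% of all genes tested. *Klf5* was at 53.8, 40.0, 131 and 130 CPM (1.44 ± 0.28, edgeR adjusted p = 0.0294) against −0.11 in all other cells, and *Klf2* was at 113, 115, 215 and 281 CPM (1.16 ± 0.23, adjusted p = 0.0294). The *Grhl3*-null libraries were both above the WT libraries for each, but the *Klf2* call was lost without *Grhl3*-null library 2 and with DESeq2. *Esco2*, a cohesin acetyltransferase, was at 45.7, 30, 109 and 101 CPM (1.42). Of 7 Hox genes tested 4 were lower, beside 0.361% of all genes tested. *Hoxc8* was at 72.6, 170.2, 3.65 and 24.2 CPM (−2.84), *Hoxc6* at 45.7, 55.1, 1.82 and 7.13 (−3.27) and *Hoxc9* at 29.6, 80.1, 1.82 and 4.28 (−3.81). *Hoxc10* had 19, 5, 0 and 0 UMIs. *Hoxc6*, *Hoxc9* and *Hoxc10* were low in both *Grhl3*-null libraries and passed the filter on low counts through the WT ones. They could therefore only be called lower, and the count of lower Hox genes supports nothing. In all other cells *Hoxc8* (−0.01), *Hoxc6* (−0.26) and *Hoxc9* (−0.56) were not called, and *Hoxc10* was lower there too, at 62.1, 64.1, 7.05 and 7.94 CPM (−3.10). The *Hoxc8* call was kept with each library left out and with the replicate block, DESeq2 giving it no adjusted p, whereas those of *Hoxc6*, *Hoxc9* and *Hoxc10* were lost without *Grhl3*-null library 1. WT germ cell-like cells more often met another class rule (4 of 9 and 2 of 3 against 1 of 12 and 4 of 17), whose part in these differences was not tested. *Greb1* (177, 110, 12.8 and 47.1 CPM, −2.21), the retinoic acid binding proteins *Crabp2* (−3.40) and *Crabp1* (−1.48), *Msi1* (−3.98), *Tpm4* (−1.68) and *Hoxb5os* (−2.99) were lower. *Xist* was lower as well (−1.74 ± 0.25, edgeR adjusted p = 0.00657), beside the different shares of cells without a Y-linked UMI given above. At means of 7.13 and 10.4 CPM in *Grhl3*-null, *Crabp2* and *Hoxb5os* passed the filter through the WT libraries and could only be called lower. At means of 5.19 and 6.54 CPM in WT, *Gm10036* and *Gm10093* could only be called higher. Whether these calls were kept under alternatives says nothing about their direction. Of the 26 calls 3 (*Gm10036*, *Stmn1* and *Xist*) were kept under all 6 alternatives run on them, namely each library left out, DESeq2 and the replicate block. Another 7 (*Gm10093*, *Klf5*, *Crabp2*, *Greb1*, *Hoxb5os*, *Hoxc8* and *Tpm4*) were kept under the other 5, and DESeq2 gave them no adjusted p.

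**Figure D5:**
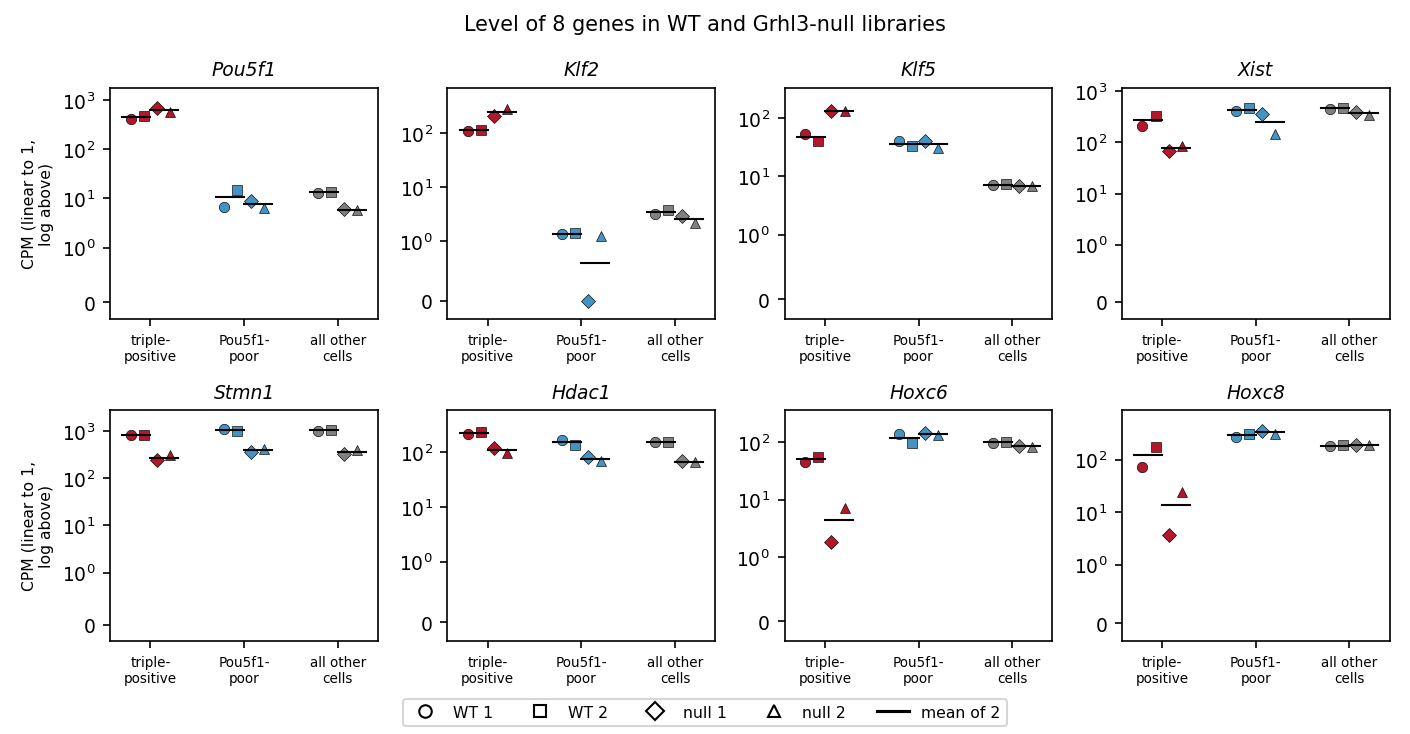
Levels of 8 genes (CPM) in WT and *Grhl3*-null libraries for germ cell-like cells, *Pou5f1*-poor selected cells and all other cells. Each point is a library and the line the mean of 2. *Stmn1* and *Hdac1* are lower in *Grhl3*-null in germ cell-like and all other cells alike, while *Klf5* is higher in *Grhl3*-null germ cell-like cells and *Hoxc8* lower.

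Whether a genotype difference was larger in germ cells than elsewhere was tested by the interaction of genotype and class. The fit held no library block, so it treated both sums of a library as independent although they came from the same reaction. A fit with a library block was run for the selected cells only, not for germ cell-like cells. The fit for germ cell-like cells was added after the data were seen. In the selected cells 36 of 9529 genes had a more positive difference (0.378%) than in all other cells and 80 a more negative one (0.84%). With DESeq2 these counts were 103 and 169. In germ cell-like cells 2 of 9359 genes had a more positive difference (0.0214%) and 1 a more negative one (0.0107%). *Pou5f1* was one of them in both: its *Grhl3*-null over WT difference was 0.56 in germ cell-like cells and −1.20 in all other cells, where it was at 12.9, 13.4, 5.92 and 5.71 CPM (interaction 1.66 ± 0.15, edgeR adjusted p = 0.0017). *Ckb*, creatine kinase B, was at 80.7, 60.1, 151 and 150 CPM in germ cell-like cells and 12.8, 12.9, 8.66 and 9.45 in all other cells (1.58, adjusted p = 0.0368). *Ccnd2*, a G1 cyclin, was at 317, 305, 164 and 218 CPM in germ cell-like cells and 522, 529, 726 and 747 in all other cells (−1.13, adjusted p = 0.0368). *Ckb* and *Ccnd2* thus differed in opposite directions in germ cell-like and all other cells. *Klf2*, *Klf5* and the Hox genes named above did not pass this test in germ cell-like cells.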

How the data were processed

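The 4 libraries (10x Genomics 3′ kit v3.1) were 2 reactions of 1 pooled suspension per genotype and were assigned to WT or *Grhl3*-null by their sample titles. Per the labels and methods, the authors processed the reads with Cell Ranger 3.0.0 against mm10 and deposited UMI counts per gene and barcode, before their own cell filters. The counts are whole numbers and were used as deposited. The annotation release was taken as GENCODE vM21 for gene names and coordinates, in which 30934 of 31055 gene IDs were found. No free-RNA correction or doublet caller was applied.

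The members and the 27 gene lists were chosen with earlier results of these data known. Cells needed at least 3000 genes, 7500 UMIs and at most 7% mitochondrial UMIs. For each library, UMIs were added up over the cells of each class. Against other cells, edgeR 4.0.16 in R 4.3.3 (TMM factors, quasi-likelihood test) was fitted to genes with a mean of at least 5 CPM, with library as a block. Between genotypes filterByExpr set the filter with no block. The interaction used the filter on mean CPM with no block, and a library block as an alternative in the selected cells. A call needed an adjusted p under 0.05 (Benjamini-Hochberg over all genes tested) and a change of 1 or more on the log2 scale, up or down, and every adjusted p in the text comes from these fits unless DESeq2 is named. Lists are given by counts and medians, with no set test. On simulated counts with 200 genes changed by a log2 fold of 2, 200 were recovered with 2 wrong calls against all other cells (9306 genes) and 198 with 12 wrong calls between genotypes (9619 genes). The simulation had the depth of the selected cells and a single fixed dispersion, and changed only genes at 30 CPM or more. Germ cell-like sums, which are smaller, were not simulated, so recovery there is not known. Libraries of a genotype differed by more than sampling noise in the selected cells (chi-square per degree of freedom 3.12 in WT and 2.21 in *Grhl3*-null), which cells of different kinds also give, and were kept as 2 samples, although reactions of 1 pool measure technical spread.

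Besides *Dppa3*, *Dnd1*, *Nanos3*, *Tfap2c*, *Pou5f1*, *Grhl3* and the listed genes, the text names the 12 largest rises and falls against all other cells among called genes with at least 30 CPM in the higher class, and the 5 largest for other tests. A few genes that meet these rules are not reported here. Alternatives were upper-quartile factors, DESeq2 1.42.0, no filter on low counts, no library block or a replicate block, stricter cell rules, thinning each cell to 7500 UMIs, each genotype alone and each library left out in turn. Near-identical gene copies (at least 95% identity over 80% of the length) were found with blastn 2.17.0.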

Additional observations from a re-analysis of the deposited data

Results flagged for a closer look

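In several genes the genotype difference in the selected cells differed from that in all other cells (edgeR quasi-likelihood test of the interaction with no library block, adjusted over 9529 genes). The difference of the log2 fold changes was 2.47 for *Pou5f1*, 2.07 for *Klf2*, 1.86 for *Ckb* and 1.68 for *Tcea3*. On the other side it was −4.27 for *Apela*, −2.81 for *Fermt1*, −2.66 for *Cpm*, −2.41 for *Krt7* and −2.38 for *Car4*. The share of *Pou5f1*-rich cells among the selected cells differed between the libraries as well (45.7% and 26.1% in WT, 43.3% and 69.2% in *Grhl3*-null), and its part in these values was not tested. In germ cell-like cells, where all cells were *Pou5f1*-rich, the interaction was 1.66 for *Pou5f1*, 1.58 for *Ckb* and −1.13 for *Ccnd2*, adjusted over 9359 genes. *Apela* was at 0.10 there. *Tcea3* lies 0.706 Mb from *Grhl3* on chromosome 4. In the selected cells it was at means of 32.4 CPM in WT and 39.3 in *Grhl3*-null, a small change beside its interaction of 1.68.

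Outside the cell filters lay 6 further barcodes with at least 2 of *Dppa3*, *Dnd1* and *Nanos3* (0 and 1 in the WT libraries, 3 and 2 in the *Grhl3*-null libraries). All 6 were over the mitochondrial limit, at 8.28% to 24.9%, and 5 of them were *Pou5f1*-rich, with 17 to 20 UMIs of *Pou5f1*.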

How the results depend on the processing

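Of the checks on genes named against all other cells 930 kept direction and call, 56 lost the call and 3 reversed. All 142, 151 and 144 checks against gut, neuromesodermal progenitor and surface ectoderm cells kept both. Every gene in these checks was already called in the same data, and those of the class comparisons were the largest folds. Many passed the filter only through the class where they are high. The counts of kept calls are raised by this choice and are no independent support. Between genotypes 98 kept both and 31 lost the call, and for the interaction 32 kept both, 7 lost the call and 1 reversed. The reversals were *Tfap2a* in germ cell-like cells (−0.25, with DESeq2 −1.36 and with upper-quartile factors −0.26, against 2.56) and *Apela* in the interaction (0.10 against −4.27). Of 162 calls named in germ cell-like cells against all other cells 145 held under each alternative that gave them an adjusted p, 140 of them with a value under all 6. The germ cell-like alternatives with a left-out library, DESeq2, other factors or a block, and the crossed block, were chosen after seeing the data. So was the interaction fit in germ cell-like cells. The causes of these changes were not tested.

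Counts of calls moved more. Without a filter on low counts the higher and lower counts were 879 and 531 against all other cells, 673 and 1076 against gut, 479 and 318 against surface ectoderm and 1321 and 526 against neuromesodermal progenitors, where more genes were tested. With all 3 genes required they were 837 and 1281, 780 and 1512, 777 and 1181, and 940 and 1122. With cells meeting another class rule left out they were 839 and 1047, 714 and 1386, 717 and 1023, and 878 and 966. Thinned cells, chosen again by the rule after thinning, gave 1055 lower against all other cells. Germ cell-like cells against all others gave 821 and 1030 with DESeq2, 828 and 1290 with upper-quartile factors, and with a library left out 858, 870, 735 and 705 higher and 1264, 1351, 919 and 958 lower (WT 1, WT 2, *Grhl3*-null 1 and *Grhl3*-null 2). Against surface ectoderm the lower count was 94 to 221 with a library left out.

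Between genotypes, with 41 higher and 71 lower in the selected cells, DESeq2 gave 14 and 24 and a limit of 5% mitochondrial UMIs 10 and 21. Requiring all 3 genes gave 6 and 20, and leaving out mixed cells 16 and 73. With a library left out they ranged from 0 to 81 and from 0 to 133. In germ cell-like cells DESeq2 gave 1 and 4, and leaving out a library 17, 23, 9 and 14 higher and 24 to 82 lower. The replicate block gave 64 and 110 in the selected cells, the crossed block 90 and 131, and the block 11 and 48 in germ cell-like cells. Same-numbered libraries did not deviate together (correlation −0.12 in the selected and 0.02 in germ cell-like cells), so the numbers do not pair the samples. The interaction counts, 36 and 80, were 103 and 169 with DESeq2, 2 and 1 with all 3 genes, and 38 and 78 with a library block, which pairs the sums of each library.

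The log2 ratio of the share of selected cells was 0.40, 1.43 with all 3 genes, 1.24 with 2 of the 3 genes after thinning, 1.20 with mixed cells left out (each of these 3 with an exact permutation p of 0.333, the smallest that 2 against 2 allows), 0.28 with no cell filters, −0.11 with 1 of the 3 genes plus *Pou5f1* and *Tfap2c*, −0.021 at 5% mitochondrial UMIs and 0.16 to 0.67 with a library left out. Thinning took *Pou5f1* detection from 68.5% to 48.0% and *Tfap2c* from 71.7% to 43.3%. With 3 germ cell-like cells and 199776 UMIs in WT library 2, low genes there rest on few molecules.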

Other observations

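Outside the selected cells, 68 filtered cells held at least 8 UMIs of *Pou5f1*. They lay in WT library 1 (28) and WT library 2 (40), with 0 in both *Grhl3*-null libraries, and their median *Dppa3* was 0 UMIs. None of the cells outside the selection held 8 or more UMIs of *Dppa3*, the highest being 5.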
